A study of Sporobolus alterniflorus and Setaria viridis with 12 samples.

Results

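The genes described here were expressed in unsalted leaves of Setaria viridis, green foxtail, a C4 grass that serves as a model species, were far lower in its leaves under NaCl, and were low in leaves of the salt marsh cordgrass Spartina alterniflora, which the labels list as Sporobolus alterniflorus. They were chosen by their values: 20 FPKM or more in every S. viridis control library, a ratio of (highest salt FPKM + 1) to (lowest control FPKM + 1) of at most 0.25, and under 5 FPKM in every S. alterniflora library. FPKM is a count of sequenced fragments set relative to gene length and to the size of the library. The rule found 29 of the 15218 gene IDs in the table. Since these values chose the genes, their low level under salt in S. viridis and their low level in S. alterniflora are given below as a description and not as a finding.

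The series holds 12 libraries of mature leaf RNA in 4 groups of 3: S. viridis with NaCl, S. viridis without, S. alterniflora with NaCl and S. alterniflora without. The labels name no genotype or transgene. S. alterniflora was moved to hydroponic medium as plants 2 months old, and the age of S. viridis is not given. The treatment protocol in the labels states a NaCl dose of 250 mM in S. viridis but 50 mM in S. alterniflora. The column names have these numbers the other way round, 50 with the S. viridis prefix and 250 with the S. alterniflora prefix, so neither dose is certain. If the species prefixes of the columns were swapped, every value below would belong to the other species. Libraries are named A, B or C by the letter in their column. Nothing in the labels says that those of 1 group came from separate plants, so a p-value here reflects the spread between libraries, which may be technical. In bulk leaf RNA, fewer cells of a type and less RNA per cell cannot be told apart.

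Sodium chloride limits water uptake by a grass plant and, as sodium and chloride build up, disturbs the cells' ion balance. Salt marsh cordgrass is known to keep growing in saline water and to secrete salt through glands on its leaves, whereas S. viridis is a weed of fields and roadsides. C4 leaves divide carbon fixation between mesophyll and bundle sheath cells, and transcripts for growth and photosynthesis are commonly lowered in leaves under salt. Which of these functions the 29 genes serve is not given here: the files pair 0 of the IDs with a name, so the genes are described by ID and by level, without roles, and leaf markers could not be looked up.

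Total FPKM per library lay between 510410 and 915944, and read depth is unknown because FPKM keeps no read total. A pair of libraries bears on the genes described here. S. viridis salt library C held higher levels of most of them than salt libraries A and B, and S. alterniflora control library C was the only cordgrass library above 0 for 7 of them. Some results that rest on either are given with and without it, and the others are given with all libraries only.

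**Figure D1:**
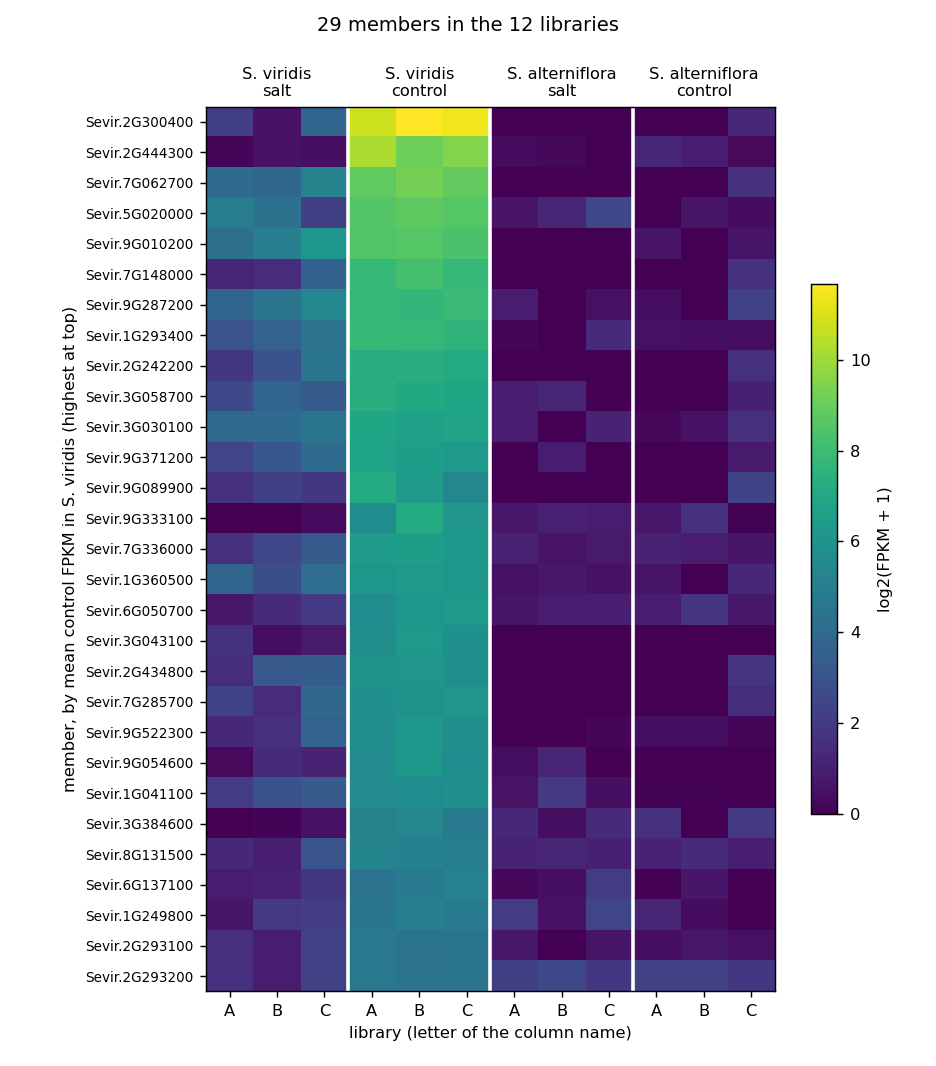
Level of each of the 29 genes, as log2(FPKM + 1), in the 12 libraries, with 1 row per gene ordered by mean S. viridis control level and 1 column per library. In each row the S. viridis control cells are the brightest, as the rule requires. Within the S. viridis salt block, library C was the highest for 23 of the 29 genes.

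Within S. viridis the 29 genes together made up 0.0443% ± 0.0197 of total FPKM under salt and 1.09% ± 0.113 in controls (SD, n = 3 each). Summed over the genes, salt libraries A, B and C held 154.4, 187.0 and 362.4 FPKM, against 6259, 7482 and 6537 FPKM in the control libraries. The 2 most abundant genes in controls, Sevir.2G300400 and Sevir.2G444300, carried 0.513% to 3.66% of the summed level under salt and 47.3% to 52.4% of it in controls. Without this pair the other 27 genes summed to 150.9, 186.1 and 349.2 FPKM under salt, against 3296, 3674 and 3115 FPKM in controls. The rule fixed that each of the 29 was lower under salt, so the sums give sizes only.

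Sevir.2G300400 was at 3.44, 0.49 and 12.86 FPKM in salt libraries A, B and C and at 1754, 3258 and 2703 FPKM in controls. Its log2 change on the log2(FPKM + 1) scale, salt minus control, was -9.11 ± 0.74 (SE). The salt values spread over more than an order of magnitude among themselves, yet the highest of them was 0.5% of the control mean. Sevir.2G444300 was at 0.14, 0.47 and 0.40 FPKM under salt and at 1209, 550.2 and 718.8 FPKM in controls, a log2 change of -9.2 ± 0.31. Here all 3 salt libraries lay close together, near 0, and it was the controls that spread, with a coefficient of variation of 41.4%. These were the 2 largest falls among all 11266 genes tested in S. viridis. Of the 10 largest falls 3 belonged to the 29 genes, and of the 50 largest, 12. The rule chose the 29 on this contrast, so these ranks are a description only. Of the 137 genes that met the S. viridis bounds, the 29 were 21.2%.

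In controls the 29 genes ranged from 22.7 to 2572 FPKM in their means, with a median of 84.1. Of these means, 11 stood at 100 FPKM or more, 12 between 50 and 100, and 6 below 50. Under salt the means ranged from 0.09 to 39.25 FPKM, with a median of 5.19. Relative to the control mean, the level left under salt was 0.0408% to 16.3%, with a median of 6.55%. By control level, the median share left was 6.16% in the 11 most abundant genes, 7.29% in the middle 12 and 8.85% in the lowest 6.

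Of the 29 genes, 7 kept under 2% of their control mean, 12 kept 2% to 10%, and 10 kept more than 10%. In the first class, Sevir.9G333100 was listed at 0, 0 and 0.27 FPKM in the salt libraries, against 49.64, 142.1 and 66.27 FPKM in controls. Sevir.3G384600 was at 0, 0.08 and 0.48 FPKM under salt, against 36.56, 41.64 and 26.02 FPKM in controls. Together with Sevir.2G444300 these were the 3 genes under 1 FPKM in every salt library. Their control means differed widely, at 86.0 FPKM for Sevir.9G333100, 34.7 FPKM for Sevir.3G384600 and 825.8 FPKM for Sevir.2G444300.

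At the other end, Sevir.9G010200 had the highest mean left under salt, at 18.83, 30.37 and 68.55 FPKM in salt libraries A, B and C, against 363.8, 383.1 and 314.8 FPKM in controls. Sevir.1G360500 kept the largest share, 16.3%, with 12.97, 5.92 and 16.86 FPKM under salt and 72.34, 75.21 and 71.30 FPKM in controls. Its controls were also the most even of the 29, with a coefficient of variation of 2.78%. Across the 29 genes this coefficient had a median of 15%, and 3 genes exceeded 30%. The highest were Sevir.9G333100 at 57.3% and Sevir.9G089900 at 55.9%. Sevir.9G089900 was at 2.14, 3.69 and 2.75 FPKM under salt and at 141.1, 83.20 and 42.18 FPKM in controls. Even there the lowest control lay more than 10 times above the highest salt library.

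In the limma fit over the whole table, 29 of the 29 genes were called lower under salt (Benjamini-Hochberg adjusted p at most 0.00236), where 27.1% of all 11266 tested genes were called lower. The rule used this contrast, so nothing is read from that count. Their median log2 change was -3.86, beside -0.12 over all genes tested, and single genes ran from -9.2 to -2.6. The 29 genes stayed called with any 1 library left out. The bounds of the rule on these same libraries made this likely, so nothing is read from it either. The count over the whole table was 3054 with all libraries and 1916, 1884 and 1976 without control library A, B or C.

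Just inside the 20 FPKM bound stood a gene with a lowest control of 20.5 FPKM, and just outside it one at 18.2 FPKM. For the ratio, the nearest values were 0.247 inside and 0.254 outside. For the highest S. alterniflora level they were 4.78 FPKM inside and 5.14 FPKM outside.

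**Figure D2:**
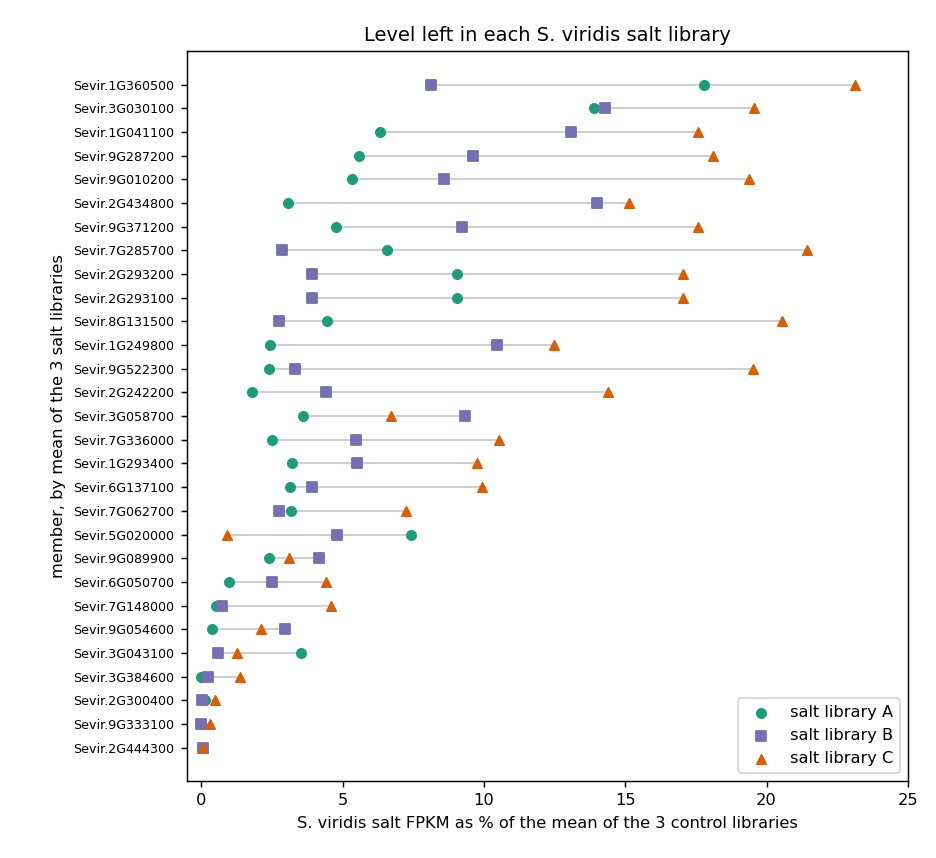
FPKM of each gene in S. viridis salt libraries A, B and C as a percentage of the mean of its 3 control libraries, 1 row per gene, with a grey line joining the lowest and highest salt library. Triangles of library C lie furthest right in 23 of 29 rows, and the points of the 4 lowest rows lie at or below 1.38%.

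The salt libraries differed in how much of these transcripts was left. The median share of the control mean was 3.19% in salt library A, 3.92% in B and 10.5% in C. Library C was the highest of the 3 for 23 genes, B for 4 and A for 2, while A was the lowest for 20, B for 8 and C for 1. For 15 genes the order was A below B below C. A higher level in C was not particular to these genes: it was the highest salt library for 81.5% of the 108 other genes that met the same S. viridis bounds and for 62.7% of all 2985 genes at 20 FPKM or more in every control, beside 79.3% of the 29.

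Sevir.5G020000 ran against this order, at 29.68, 19.18 and 3.69 FPKM in salt libraries A, B and C, against 376.6, 441.0 and 381.7 FPKM in controls. It was the only one of the 29 genes whose lowest salt value was in library C. Sevir.3G043100, the other gene highest in A, was at 2.23, 0.37 and 0.79 FPKM under salt and at 54.30, 78.05 and 56.95 FPKM in controls.

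Library C also set how many genes the rule found. Without it the rule found 90 genes, all 29 among them. The 61 added genes kept medians of 8.95% and 12.2% of the control mean in salt libraries A and B, and 34.8% in C, with a range in C from 18.2% to 125.3%. Library C was the highest salt library of each added gene by construction. Their median level in S. alterniflora was 0.552 FPKM, close to the 0.56 FPKM of the 29. Over all 2985 genes at 20 FPKM or more in every control, the median share left was 55.5% in salt library A, 64.2% in B and 84.5% in C. The 29 genes are thus those that were low in library C as well.

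The level in S. alterniflora was set against the S. viridis loss to see whether the lost genes were more often low in cordgrass than other leaf genes. Of the 137 genes that met the S. viridis bounds, 29 were under 5 FPKM in every S. alterniflora library, which is 21.2%. Of the 2848 genes at 20 FPKM or more in every S. viridis control that did not meet the salt bound, 623 were, which is 21.9%. Without S. alterniflora control library C, 33 of the 137 were under 5 FPKM throughout, and the matching count among the 2848 was not made. The shares are a description, since genes are not replicates. How cordgrass reads were tied to Setaria IDs is not given, so little RNA and poor assignment of a divergent gene cannot be told apart in a low S. alterniflora value. Of the other 108 lost genes, 83 were at 5 FPKM or more in all 6 cordgrass libraries and 25 lay in between.

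**Figure D3:**
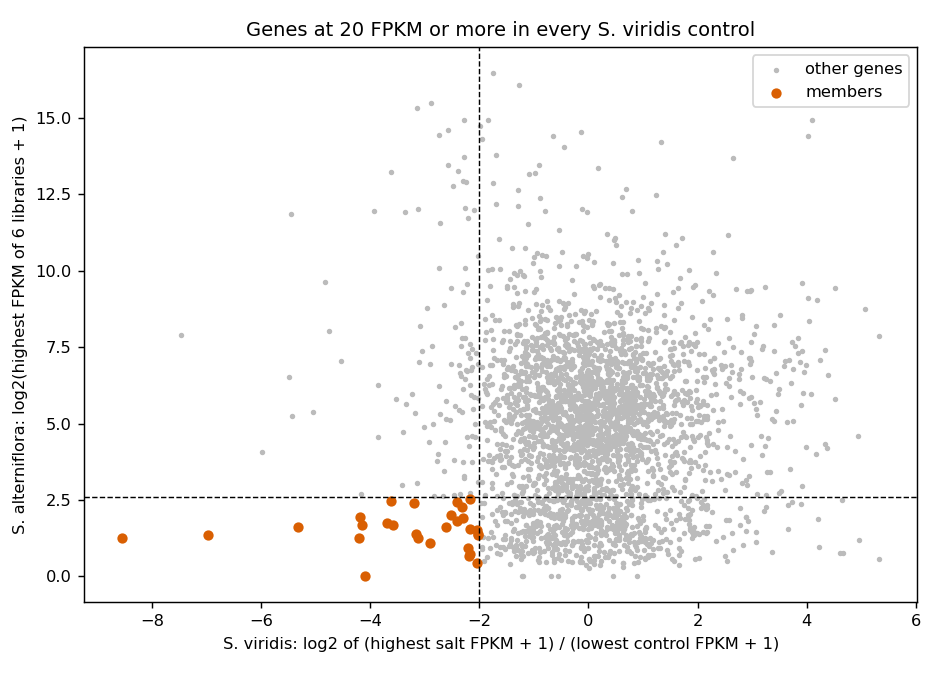
Genes at 20 FPKM or more in every S. viridis control (2985 points), by log2 of (highest salt FPKM + 1) over (lowest control FPKM + 1) in S. viridis and by log2(highest FPKM + 1) over the 6 S. alterniflora libraries, with dashed lines at the bounds of the rule. The 29 members fill the lower left corner, below 108 other genes within the salt bound and left of 623 genes that are low in cordgrass and outside the salt bound.

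Compared with the 83 lost genes that were at 5 FPKM or more in all 6 cordgrass libraries, the 29 genes were less abundant in S. viridis controls, with a median of 84.1 FPKM against 192.3 FPKM. The median share left under salt was 6.55% in the 29 and 8.98% in the 83. By salt library the medians were 3.19%, 3.92% and 10.5% in the 29, against 4.00%, 7.08% and 15.2% in the 83. The 25 lost genes in between had a control median of 87.9 FPKM and salt library medians of 2.25%, 5.14% and 10.2%. A lower control level and a smaller share left than in the 83 were thus not particular to the 29. The order of the libraries was the same in each of these sets. None of these differences between sets was tested.

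In S. alterniflora the 29 genes had means over the 6 libraries of 0 to 3.57 FPKM, with a median of 0.56. Sevir.3G043100 was listed at 0 in all 6 libraries and was the only one of the 29. In all 6 libraries 5 genes were above 0, and 5 were under 1 FPKM in all 6. The highest mean belonged to Sevir.2G293200, at 3.61, 4.78 and 2.70 FPKM in salt libraries and 3.81, 3.81 and 2.68 FPKM in controls. The salt and control values of that gene overlapped.

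Sevir.2G293100, with the preceding ID, had the same value as Sevir.2G293200 in each of the 6 S. viridis libraries, namely 2.05, 0.89 and 3.87 FPKM under salt and 25.25, 21.05 and 21.78 FPKM in controls. In S. alterniflora the 2 IDs differed, since Sevir.2G293100 was at 0.68, 0 and 0.58 FPKM in salt libraries and 0.33, 0.67 and 0.46 FPKM in controls. Across all IDs, 11 such pairs shared all 6 S. viridis values and reached 5 FPKM, and no IDs at that level shared all 6 S. alterniflora values. The 29 IDs thus hold 28 distinct sets of S. viridis values, and the level of this pair is uncertain as that of 1 or 2 genes.

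**Figure D4:**
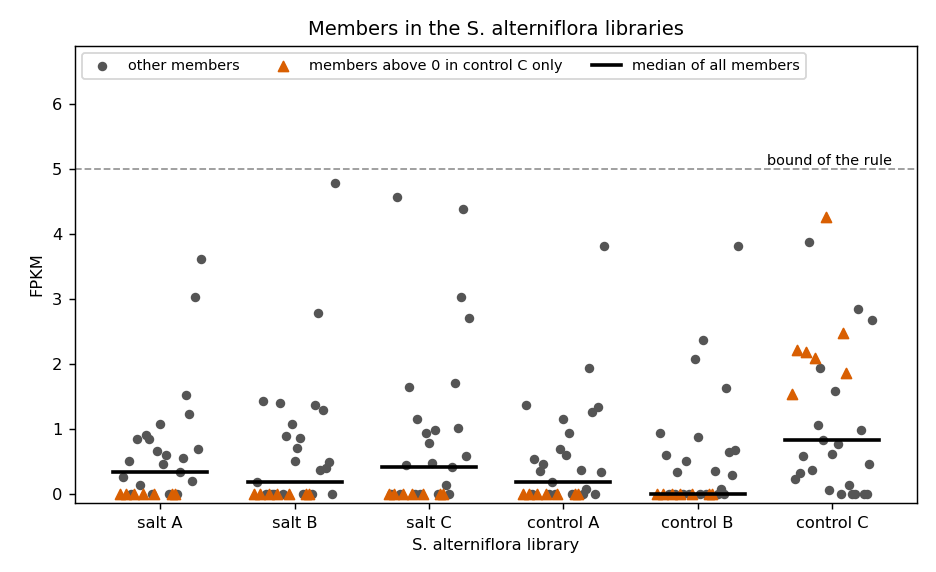
FPKM of the 29 genes in each S. alterniflora library, with 1 point per gene, a black bar at the median of the 29, and triangles for the 7 genes above 0 in control library C only. Medians lie between 0 and 0.41 FPKM in 5 libraries and at 0.82 FPKM in control C, and no point reaches the bound of 5 FPKM.

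Summed over the 29 genes, S. alterniflora salt libraries A, B and C held 17.40, 18.52 and 24.94 FPKM, against 15.36, 15.13 and 35.90 FPKM in controls. As a share of total FPKM these were 0.00235%, 0.00261% and 0.00351% in salt libraries, against 0.00197%, 0.00227% and 0.00392% in controls. Control library C had the highest sum and the highest total FPKM, and by share its gap to salt library C was smaller than by sum. It had 5 of the 29 genes listed at 0, against 11 to 15 in each of the others, and was the highest cordgrass library for 12 genes. There were 7 genes listed at 0 in all the other libraries and at 1.54 to 4.26 FPKM in control C, and no other library was alone above 0 for any of the 29. Of these 7, Sevir.2G300400, the most abundant gene in S. viridis controls, was at 1.54 FPKM there, and Sevir.9G089900 at 4.26 FPKM.

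This pattern reached beyond the 29 genes. Among all genes listed at 0 in the other 5 libraries, 48 stood at 20 FPKM or more in every S. viridis control. Of these 48, 41 were above 0 in control C, which is 85.4%. With the 29 genes left out it was 34 of 40, which is 85%. Of 158 genes under that level, 105 were above 0 in control C, which is 66.5%. With each of the other libraries as the single one, 2 of 9 to 12 of 19 genes of the first kind were above 0, which is 22.2% to 63.2%. With the 29 genes left out this was 25% to 66.7%. For genes under that level it was 44.8% to 67.7%, a range that holds the 66.5% of control C. Control C thus stood apart only for genes of the first kind. The part of control library C in the cordgrass levels was not tested. Without it, 8 of the 29 genes were listed at 0 in every S. alterniflora library and 14 were under 1 FPKM throughout.

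The salt contrast within S. alterniflora was not used by the rule, which bounded only the level there. Of the 29 genes 6 passed the filter of a mean of 1 FPKM, and 0 of these 6 were called (limma, smallest adjusted p = 0.389), where 1.62% of 11330 tested genes were called. None of the 6 had an unadjusted p under 0.05, beside 14.7% of all tested genes, a share at which none in 6 is no result about these genes. The count over the whole table was 184 with all libraries and 0 without control library A (limma, 1099 at an unadjusted p under 0.05), and it was 67 without control B, 49 without control C, 116 without salt A and 35 without salt C. The largest changes were those of Sevir.1G249800 and Sevir.5G020000. Sevir.1G249800 was at 3.03, 0.48 and 4.39 FPKM in salt libraries and 1.33, 0.29 and 0 FPKM in controls, a log2 change of 1.14 ± 0.57 (SE, limma adjusted p = 0.405). Sevir.5G020000 was at 0.51, 1.42 and 4.57 FPKM in salt libraries and 0, 0.59 and 0.32 FPKM in controls, a log2 change of 1.09 ± 0.53 (limma adjusted p = 0.389). In both genes the groups overlapped.

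Without the filter, limma called 0 of the 29 genes, where 0.467% of all 15218 were called, and 1 of the 29 had an unadjusted p under 0.05, beside 12.6% of all. The median log2 change over the 29 was -0.09, beside 0.06 over all 15218 genes. It was -0.49 with a pseudocount of 0.1, -0.22 without salt library A, -0.27 without salt library C and 0 without control library C, so its size is not settled. At levels this near 0 a fall of the size seen in S. viridis could not be measured in S. alterniflora. Groups that do not overlap were found for 1 of the 29 genes, Sevir.1G041100, with salt above control, where 12.8% of all genes had salt above control and 6.29% salt below.

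The levels left in S. viridis under salt were then set beside those of cordgrass. For 14 of the 29, every S. viridis salt library still lay above every S. alterniflora library, for 15 the ranges overlapped, and 0 had every S. viridis salt library below. Without S. alterniflora control library C, chosen as an alternative after seeing the data, these counts were 19, 9 and 1. The 1 was Sevir.9G333100, with 0, 0 and 0.27 FPKM in S. viridis salt libraries beside 0.66, 1.08 and 0.94 FPKM in S. alterniflora salt libraries and 0.69, 2.07 and 0.06 FPKM in cordgrass controls A, B and C, so that it overlapped through control C alone. There were 11 genes under 5 FPKM in every S. viridis salt library, the bound that the rule set for cordgrass. The scaling of FPKM between the species is unknown, so these levels are set side by side without a test.

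The IDs of the 29 genes were spread over the table. In this ID scheme the digit before the G is the chromosome number. There were 7 IDs that began with Sevir.9G, 6 with Sevir.2G, 4 each with Sevir.1G, Sevir.3G and Sevir.7G, 2 with Sevir.6G, 1 each with Sevir.5G and Sevir.8G, and 0 with Sevir.4G, where the table holds 2836, 1919, 1905, 1915, 1453, 1005, 2276, 655 and 1254 IDs in the same order. Only Sevir.2G293100 and Sevir.2G293200 were next to each other in the table.

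The IDs next to the 29 in the table were lower under salt about as often as other genes. Of the 56 neighbouring IDs that are not among the 29, 44 were at 1 FPKM or more in the S. viridis control mean. Of these 44, 26 had a negative log2 change under salt, which is 59.1%, beside 58.4% of all 10799 genes at that control level. The median change was -0.15 for the 44 and -0.22 for all such genes. By 2 or more on the log2 scale, 5 of the 44 were lower, which is 11.4%, beside 6.56% of all such genes. They were Sevir.1G041200, Sevir.1G293500, Sevir.3G058600, Sevir.3G058900 and Sevir.9G010100.

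Some of these 5 flanked members that differed from them in cordgrass. Sevir.9G010100 was itself low there, at a mean of 4.06 FPKM, beside 0.187 FPKM for the member Sevir.9G010200. Sevir.1G041200 averaged 35.7 FPKM there, beside 0.648 FPKM for the member Sevir.1G041100. Sevir.1G293400 was at 6.85, 11.76 and 20.75 FPKM in S. viridis under salt, against 227.9, 217.6 and 193.4 FPKM in controls, and averaged 0.487 FPKM over the 6 S. alterniflora libraries. The next ID, Sevir.1G293500, averaged 31.8 FPKM under salt and 1955 FPKM in controls in S. viridis, but 519.4 FPKM in S. alterniflora. Both were low under salt in S. viridis, and they differed by 3 orders of magnitude in cordgrass.

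Sevir.3G058700 was at 4.98, 12.86 and 9.28 FPKM in S. viridis under salt, against 160.4, 134.2 and 119.6 FPKM in controls, and averaged 0.56 FPKM in S. alterniflora. The IDs on either side of it in the table, Sevir.3G058600 and Sevir.3G058900, averaged 36.9 and 6.8 FPKM under salt, against 223.8 and 42.8 FPKM in controls. In S. alterniflora they averaged 79.3 and 50.7 FPKM. All 3 IDs, neighbours in the table though not consecutive in number, were thus lower under salt in S. viridis. The middle one alone was near 0 in cordgrass. These neighbours were picked after their values were seen.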

How the data were processed

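The deposited data are 1 table by the authors with FPKM values of 12 libraries for 15218 gene IDs, per the file headers. The submitters' processing notes name RSEM and edgeR but give them no role or version. Not given in the sources used here are the aligner, the reference, its build and how S. alterniflora reads were tied to Setaria IDs. Placed on Setaria gene models, reads of a divergent cordgrass gene would be undercounted. Columns were assigned to groups by species and treatment, not to single samples.

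Since the unit is FPKM, no count test was run. The fits took log2(FPKM + 1), which understates the change of low genes, with limma 3.58.1 in R 4.3.3 (eBayes with trend, two-sided, Benjamini-Hochberg over all tested genes, threshold 0.05), restricted to genes that averaged 1 FPKM or more over the 6 libraries of a species. The script was tested on simulated data for genes that averaged 1 FPKM or more, which does not cover lower levels. Tables were made with pandas 2.3.3 under Python 3.11.15, and figures with matplotlib 3.10.9. The 29 genes and the lists were chosen with earlier results of these data known. The naming rule gave the 2 largest falls, and the other IDs were named after their values were seen. The 17 product-name lists could not be used, since 0 IDs have a name. Alternatives were another pseudocount, other filters, upper quartile scaling, no trend, 1 fit over 12 libraries, the column letter as a block and each library left out.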

Additional observations from a re-analysis of the deposited data

Results flagged for a closer look

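In Sevir.1G041100 every S. viridis salt library lay below every control, and every S. alterniflora salt library lay above every control, as in 12.8% of all genes in S. alterniflora. The S. alterniflora part did not pass a test. In S. viridis it was at 3.27, 6.76 and 9.08 FPKM in salt libraries, against 48.38, 49.36 and 57.26 FPKM in controls, a separation that the rule required. In S. alterniflora it was at 0.55, 2.79 and 0.41 FPKM in salt libraries (mean 1.25), against 0.07, 0.07 and 0 FPKM in controls (mean 0.0467). A two-sided exact permutation test of the S. alterniflora values gave p = 0.1, the smallest that 3 against 3 libraries allow, and 1 of the 29 genes reached it. Its mean over the 6 libraries was under the filter; without the filter its log2 change was 0.95 ± 0.39 (SE, limma adjusted p = 0.393). The difference between the species was not tested. No group held 4 or more libraries, so no library was tested as an outlier within its group.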

How the results depend on the processing

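The rule found 29 to 90 genes with 1 library left out, 90 of them without S. viridis salt library C and at most 39 otherwise, 32 after upper quartile scaling and 33 with a pseudocount of 0.1. The original 29 were all among these except after scaling, which shared 25. The 29 genes were called lower in S. viridis under all 13 alternatives. The rule chose them on these same libraries, so nothing is read from that count. Their median effect in S. viridis, also a description only, stayed within the spread of the salt libraries. Genes called lower in S. viridis numbered 1884 to 4093 with 1 library left out, the 3 lowest counts being those without a control library (1916 without A, 1884 without B, 1976 without C), beside 3054 with all. In S. alterniflora, 184 genes were called with all libraries, 71 without the filter, 526 in 1 fit over all 12 libraries and 0 to 154 with 1 library left out. The 0 came without control A (limma, 1099 at an unadjusted p under 0.05). The cause of these shifts was not tested. None of the 29 genes was called there under any limma alternative that tested one, with at most 2 at an unadjusted p under 0.05. No member passed a filter at a mean of 5 FPKM. Their median S. alterniflora effect was -0.49 with a pseudocount of 0.1 and -0.27 to 0 with 1 library left out, against -0.09.

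With the column letter as a replicate block, 105 genes were called in S. alterniflora and 2888 lower in S. viridis. Deviations of salt and control libraries with the same letter correlated at -0.0226 to 0.048, and those with different letters at -0.159 to 0.0989. With so few libraries this cannot decide whether a letter marks a shared origin.

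Read depth is unknown, which limits what can be said of values near 0 FPKM.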
